A study of Mus musculus with 12 samples.

Results

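The Ifi200 (PYHIN) genes of the mouse encode interferon-inducible proteins, and 4 of them are described here: Ifi205, Ifi203, Ifi204 and Aim2. They were measured on 12 whole-transcript microarrays of total RNA from marrow flushed out of the long bones of B6 mice, at 16 days of age. The 4 groups held 3 arrays each: irradiated mice given PTH (parathyroid hormone, a peptide that raises bone formation when given intermittently), irradiated mice given vehicle, nonirradiated mice given PTH and nonirradiated mice given vehicle. Irradiated mice had been exposed at 10 days, sub-lethally and in 2 fractions of 310 cGy, and PTH or vehicle followed from day 11 to day 15. All groups shared strain, tissue and age, and the labels name no allele or transgene. Whether each array stands for its own mouse is not stated in the labels. The p-values therefore reflect how far the deposited samples of a group differ, and some of that difference may be technical.

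The members were all rows of the value table whose annotation holds 1 of the 4 symbols. This gave 4 rows, against 35556 rows in all and 19938 genes with a row of their own. Ifi205, Ifi203 and Aim2 each had 1 row of their own, while Ifi204 appeared only in a row shared with Ifi211, whose RNA cannot be told apart from that of Ifi204 here. The family arose by gene duplication, and whether probes of 1 row also match other members was not tested. The members were chosen by the irradiation differences of these same arrays, since Ifi205 had been among the largest increases in earlier results. Their differences with irradiation are therefore a description without a test. The members were not chosen by their differences between PTH and vehicle, and these were tested. The arrays behind the choice included PTH-treated ones. The same arrays enter the PTH contrasts and the interaction, so those tests are not independent of the choice. Values are log2 expression, on which 1 unit is a 2-fold difference.

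Most proteins of the family join an N-terminal pyrin domain, which binds other pyrin domains, to a HIN domain, which binds DNA. AIM2 binds double-stranded DNA in the cytosol, recruits the adaptor ASC (Pycard) and so assembles an inflammasome, in which caspase-1 matures the cytokines IL-1β and IL-18. The p204 protein of Ifi204 is a mouse relative of human IFI16 and has been linked to DNA sensing through STING, and interferons raise transcription of several members through transcription factors that bind ISRE elements. In marrow these genes are best known from macrophages and other myeloid cells.

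In the RefSeq gene table of assembly GRCm38.p6, 13 family genes lay on chromosome 1 in the order Aim2, Ifi206, Ifi214, Ifi213, Ifi209, Ifi208, Ifi207, Ifi204, Mndal, Ifi211, Ifi203, Ifi202b and Ifi205. No other protein-coding gene lay between the first and the last (0 in that table), so Aim2 and Ifi205 are the ends of the cluster. The 250 bases upstream of the start site are shown for the member with the large difference, Ifi205, for Ifi203, whose difference ran the other way, and for Aim2, to set their interferon elements side by side. They are from RefSeq's GRCm38.p6 sequence, 5′ to 3′ on the strand of the gene. Capitals mark the ISRE core, searched as GAAA, any 2 bases and GAAA again, on both strands. The Ifi205 stretch is chr1:174031756-174032005 on the minus strand, that of Ifi203 (the second of its start sites) chr1:173942493-173942742 on the minus strand, and that of Aim2 chr1:173420354-173420603 on the plus strand.
Ifi205: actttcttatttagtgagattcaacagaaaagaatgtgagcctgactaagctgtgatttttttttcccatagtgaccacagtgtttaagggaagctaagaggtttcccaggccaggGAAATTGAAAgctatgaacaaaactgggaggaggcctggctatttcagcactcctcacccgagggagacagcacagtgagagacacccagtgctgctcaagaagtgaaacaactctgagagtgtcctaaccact
Ifi203: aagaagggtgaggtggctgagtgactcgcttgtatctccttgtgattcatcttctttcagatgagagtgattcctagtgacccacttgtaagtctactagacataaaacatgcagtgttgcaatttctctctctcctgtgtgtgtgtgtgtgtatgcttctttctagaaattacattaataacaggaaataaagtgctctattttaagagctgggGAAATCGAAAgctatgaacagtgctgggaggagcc
Aim2: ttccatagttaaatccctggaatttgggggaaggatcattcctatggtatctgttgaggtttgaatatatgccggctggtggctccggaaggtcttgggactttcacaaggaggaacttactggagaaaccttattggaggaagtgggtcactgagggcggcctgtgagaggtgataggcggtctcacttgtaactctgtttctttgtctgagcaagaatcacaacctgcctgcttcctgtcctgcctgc

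A window here is 250 bases before to 50 after a start site. The Ifi205 window held 2 matches, 1 on the strand of the gene 134 bases before the start site and 1 on the other strand 23 bases after it, beyond the stretch shown. In Ifi203 the core stood 35 bases before the second start site, and the window of its first start site held 0 matches, as did the Aim2 window. The core was in 9 of 12 family genes with such a window in the RefSeq table, against 3.99% of 27025 genes in all. The family genes share ancestry and are not independent cases. The GAS motif TTCNNNGAA, searched likewise, was in 1 of the 12 family genes, Ifi202b, against 9.55% of all genes. The 30 bases around the element are shown for 3 further genes, since their differences with irradiation ran in both directions and Ifi209 lacked the first letter of the core. Capitals mark the core, or in Ifi209 the shorter match AAATNGAAA, which 2.14% of all genes held on either strand and which overlaps the core. This shorter pattern fixes a T, as in Ifi209, where the core allows any base. Its share is therefore not that of a core without its first letter, which was not counted.
Ifi207 (chr1:173741831-173741860, minus strand): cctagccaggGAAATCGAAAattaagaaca
Ifi214 (chr1:173536017-173536046, minus strand): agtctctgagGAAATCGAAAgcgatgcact
Ifi209 (chr1:173630770-173630799, plus strand): aatctctgagtAAATCGAAAgagatgcact

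Xist, a noncoding RNA of female cells, was high in 1 of 3 irradiated PTH arrays, 1 of 3 irradiated vehicle arrays, 3 of 3 nonirradiated PTH arrays and 0 of 3 nonirradiated vehicle arrays. PTH and sex therefore cannot be told apart in nonirradiated marrow except through the arrays of the other groups. The interaction includes that difference and shares this limit. By these counts sex was also unbalanced in the irradiation contrasts, more so with PTH than with vehicle. Replicate 3 of the irradiated PTH group and replicate 3 of the nonirradiated vehicle group had narrower ranges of values (interquartile ranges of 2.88 and 2.86, against 3.13 to 3.25 in the other 10 arrays). Correlations between arrays of a group ran from 0.9457 to 0.9909. Over all rows, group differences had a median SE of 0.189, a precision limited by the number of arrays. The flush held erythroid and neutrophil markers at high levels on every array (means over the list of 10.76 to 11.42 for 8 erythroid genes and 10.30 to 11.28 for 12 neutrophil genes).

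Ifi205, whose p205 protein has been reported in mouse cells to control Pycard expression, stood at 8.26, 9.11 and 8.36 in irradiated PTH marrow and at 8.60, 9.01 and 9.05 in irradiated vehicle marrow. It stood at 6.03, 5.71 and 6.04 in nonirradiated PTH marrow and at 5.98, 6.04 and 6.07 in nonirradiated vehicle marrow. All 6 irradiated arrays were above all 6 nonirradiated arrays, with 8.26 the lowest irradiated value and 6.07 the highest nonirradiated value. In both irradiated groups replicate 1, the array with high Xist, had the lowest Ifi205 value. The part of sex in this was not tested beyond a fit with a term for it, in which the difference with PTH was 2.35. The spread was wider after irradiation: the group SDs were 0.463 and 0.249 in irradiated PTH and irradiated vehicle marrow, and 0.186 and 0.047 in nonirradiated PTH and nonirradiated vehicle marrow (n = 3 each). The irradiated level was 6.27 times the nonirradiated one with PTH (log2 difference 2.65, SE 0.216) and 7.27 times with vehicle (2.86, SE 0.216). Of all 35556 rows, 43 had a larger difference with PTH and 6 with vehicle. This rank repeats the reason for which the family was chosen. Over all rows, 3.28% did not overlap between the 6 irradiated and the 6 nonirradiated arrays, and 1.23% did so with the irradiated arrays higher.

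The other members did not share this separation. Ifi203, an interferon-inducible member at the same end of the cluster, stood at 9.39, 9.86 and 9.97 in irradiated PTH marrow and 9.51, 9.52 and 9.98 in irradiated vehicle marrow. Its values were 10.00, 9.74 and 10.75 in nonirradiated PTH marrow and 10.48, 10.00 and 10.08 in nonirradiated vehicle marrow. With vehicle the irradiated arrays lay below the nonirradiated arrays by a narrow gap, 9.98 against 10.00 at its edges, and with PTH the groups overlapped. The log2 difference with irradiation was -0.42 (SE 0.266) with PTH and -0.52 (SE 0.266) with vehicle, the opposite sign to Ifi205.

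The row of Ifi204 and Ifi211 stood at 8.51, 9.21 and 9.02 in irradiated PTH marrow, 8.57, 8.61 and 8.89 in irradiated vehicle marrow, 8.43, 8.20 and 8.75 in nonirradiated PTH marrow and 8.95, 8.39 and 8.39 in nonirradiated vehicle marrow. The groups overlapped in both treatments, and the irradiation differences were 0.45 and 0.12 (SE 0.225 each) with PTH and with vehicle. Aim2 had the largest standard error of the 4, although in nonirradiated PTH marrow the SD of Ifi203 (0.524) exceeded that of Aim2 (0.464). It stood at 8.77, 9.02 and 9.77 in irradiated PTH marrow, 8.07, 8.62 and 9.20 in irradiated vehicle marrow, 8.87, 8.40 and 9.33 in nonirradiated PTH marrow and 9.70, 8.47 and 8.28 in nonirradiated vehicle marrow. Its irradiation differences of 0.32 with PTH and -0.19 with vehicle (SE 0.426 each) were below their standard errors, and the groups overlapped. Neither sign was stable: with a term for sex they were -0.17 and 0.06, and the difference with vehicle was 0.25 without replicate 1 of nonirradiated vehicle marrow and 0.09 without replicate 1 of irradiated vehicle marrow. By group mean, Ifi205 was highest in irradiated vehicle marrow (8.89) and Aim2 in irradiated PTH marrow (9.19), in both cases with overlap between the PTH and vehicle arrays. With vehicle, 1 of the 4 member rows lay wholly higher and 1 wholly lower in the irradiated arrays, and with PTH 1 lay wholly higher. Over all rows such separation was seen in 16.3% with vehicle (7.15% higher and 9.2% lower) and in 17.2% with PTH (8.58% higher and 8.61% lower).

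**Figure D1:**
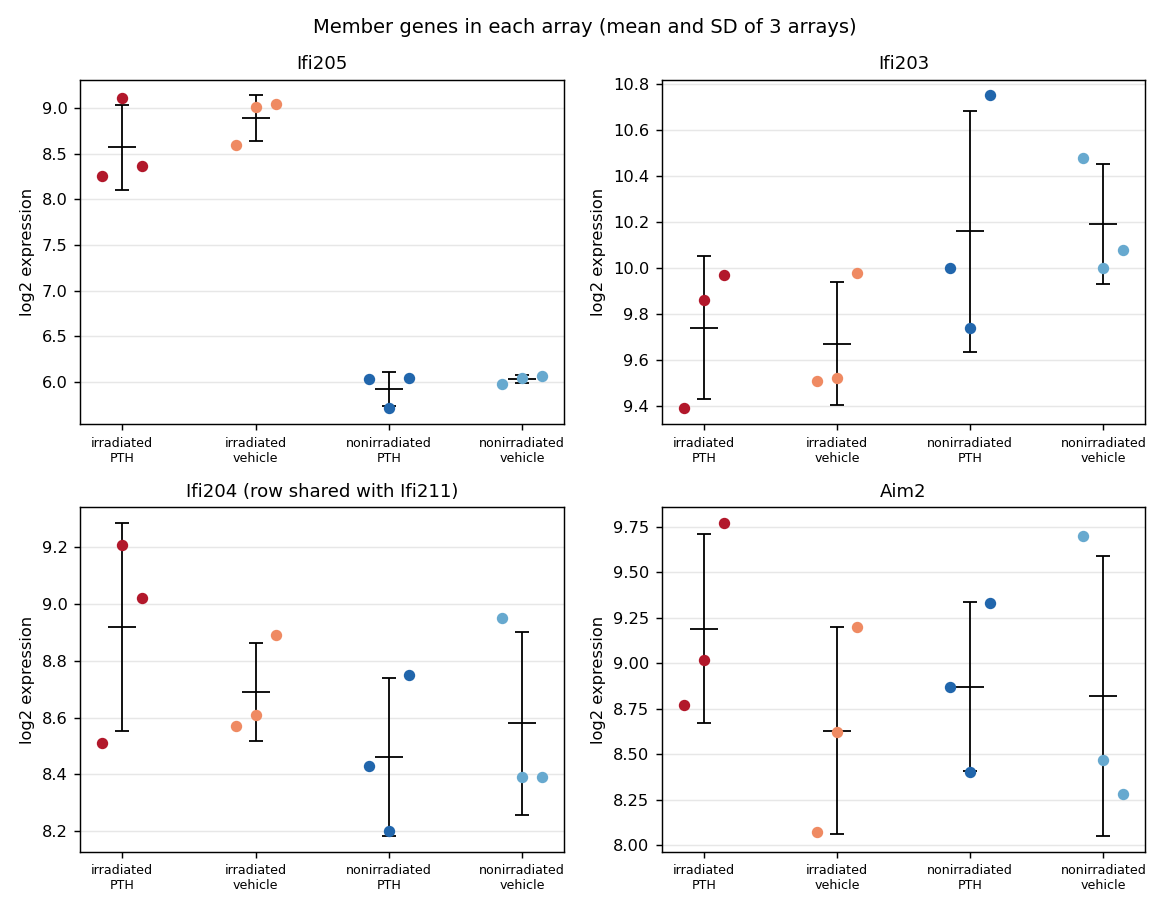
Log2 expression of Ifi205, Ifi203, the row of Ifi204 and Ifi211, and Aim2 (1 panel each, with its own scale) in every array, with the mean and SD of the 3 arrays of each group as bars. For Ifi205 the 6 irradiated arrays lie between 8.26 and 9.11, above the 6 nonirradiated arrays at 5.71 to 6.07, while the arrays of Aim2 overlap across all groups.

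In whole marrow, a difference in the number of cells that carry an RNA and a difference in RNA per cell cannot be told apart. Over all rows, 1.08% passed limma's test for irradiation with PTH (0.298% higher and 0.785% lower) and 0.937% with vehicle (0.481% higher and 0.456% lower). At limma's unadjusted p under 0.05 there were 3680 of the 35556 rows with PTH and 3610 with vehicle. Of 12 B-lineage markers, 10 fell with irradiation in PTH-treated marrow (median of the list -2.45) and 8 in vehicle-treated marrow (median -1.83). Their mean level was 6.78 to 7.28 in irradiated PTH and 7.18 to 7.46 in irradiated vehicle arrays, against 9.20 to 9.51 in nonirradiated PTH and 9.10 to 9.41 in nonirradiated vehicle arrays. Of 9 adipocyte markers, 4 rose with PTH (median 0.76) and 6 with vehicle (median 1.41), at mean levels of 9.05 to 9.31 in irradiated PTH and 9.63 to 9.75 in irradiated vehicle arrays, against 8.04 to 8.32 and 8.22 to 8.52 in the nonirradiated PTH and nonirradiated vehicle arrays. Of 15 monocyte and macrophage markers, 0 passed limma's test with either treatment (3 and 6 had an unadjusted p under 0.05 with PTH and with vehicle). Their mean levels were 8.49 to 9.22 in irradiated PTH and 9.06 to 9.29 in irradiated vehicle arrays, against 8.99 to 9.11 in nonirradiated PTH and 8.74 to 9.11 in nonirradiated vehicle arrays. In the remaining lists, with PTH and with vehicle, 2 and 1 of 9 T and NK cell markers fell, 1 and 1 of 8 erythroid markers fell, 1 and 0 of 12 neutrophil markers fell, and 0 and 0 of 8 endothelial markers passed (2 and 3 at an unadjusted p under 0.05). Of 10 dendritic cell markers 2 fell with each treatment and 1 rose with vehicle. The part of these cell types in the values of the members was not tested.

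The other genes of the family could be tested for irradiation, although they too were listed with earlier results known. Of 7 with a row of their own, 1 passed limma's test, at an adjusted p under 0.05, with each treatment: Ifi209, known in older tables as Pyhin1, fell. Ifi209 stood at 7.02, 8.09 and 7.94 in irradiated PTH marrow and 7.23, 7.40 and 7.51 in irradiated vehicle marrow, against 8.98, 8.83 and 9.66 in nonirradiated PTH marrow and 9.57, 9.15 and 9.12 in nonirradiated vehicle marrow. Its 6 irradiated arrays were all below its 6 nonirradiated arrays, the mirror image of Ifi205, and 2.05% of all rows were separated in that direction. The log2 difference was -1.47 (SE 0.29, limma adjusted p = 0.0403) with PTH and -1.90 (SE 0.29, adjusted p = 0.0129) with vehicle. The call with PTH was narrow: it was kept in 2 of 12 fits that each left out 1 array (adjusted p up to 0.154), and was lost at 0.221 when only the groups compared were fitted. With vehicle it was kept in 10 of 12 such fits and lost without replicate 1 (0.0625) or replicate 2 (0.0636) of irradiated vehicle marrow. In the same contrasts, with PTH and with vehicle, 10 and 8 of 12 B-lineage genes fell. Single marker genes of other lists fell with both treatments. Those were Cd2 of the T and NK list (-2.09 and -1.86) and Car1 of the erythroid list (-1.27 and -1.25). In the dendritic list they were Siglech (-1.58 and -1.53) and Cd209a (-1.59 and -1.30). Csf3r of the neutrophil list (-1.72) and Cd3e of the T and NK list (-0.90) fell with PTH and did not pass with vehicle. Of 9 T and NK genes 9 had negative differences with PTH, and with vehicle 7 were negative and 2 positive. The dendritic and erythroid lists did not fall as a whole. Of 10 dendritic genes 5 had positive differences with each treatment, and Xcr1 rose with vehicle (1.52). Of 8 erythroid genes 4 had positive differences with PTH and 6 with vehicle. The part of these markers in the fall of Ifi209 was not tested.

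Ifi214 was also lower but did not pass. Its arrays stood at 5.11, 5.20 and 5.70 in irradiated PTH and 5.49, 4.60 and 5.89 in irradiated vehicle marrow, against 6.30, 5.50 and 7.18 in nonirradiated PTH and 7.37, 6.22 and 6.85 in nonirradiated vehicle marrow. The log2 differences were -0.99 (limma adjusted p = 0.483) with PTH, where the groups overlapped, and -1.49 (adjusted p = 0.218) with vehicle, where they did not. Ifi207 stood at 9.60, 9.56 and 9.91 in irradiated PTH and 9.53, 9.48 and 9.79 in irradiated vehicle marrow, against 8.87, 8.83 and 9.54 in nonirradiated PTH and 9.45, 8.88 and 9.27 in nonirradiated vehicle marrow. The irradiated arrays of Ifi207 were higher without overlap in both treatments, though by narrow gaps (9.56 against 9.54 at the edges with PTH, 9.48 against 9.45 with vehicle). They differed by 0.61 (adjusted p = 0.308) with PTH and 0.40 (adjusted p = 0.585) with vehicle, which did not pass. Ifi208 differed by 0.40 and 0.43, Ifi213 by 0.26 and 0.08, Ifi206 by -0.00 and -0.17 and Ifi202b by 0.06 and -0.02 with PTH and with vehicle, each with overlapping groups and an adjusted p above the threshold in limma's test. Ifi202b, whose p202 protein lacks a pyrin domain and inhibits AIM2 in mouse cells, stayed between 3.20 and 3.81 on all 12 arrays. The median difference of the 7 genes was 0.06 with PTH and -0.02 with vehicle, beside 0.03 and -0.04 over all rows.

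**Figure D2:**
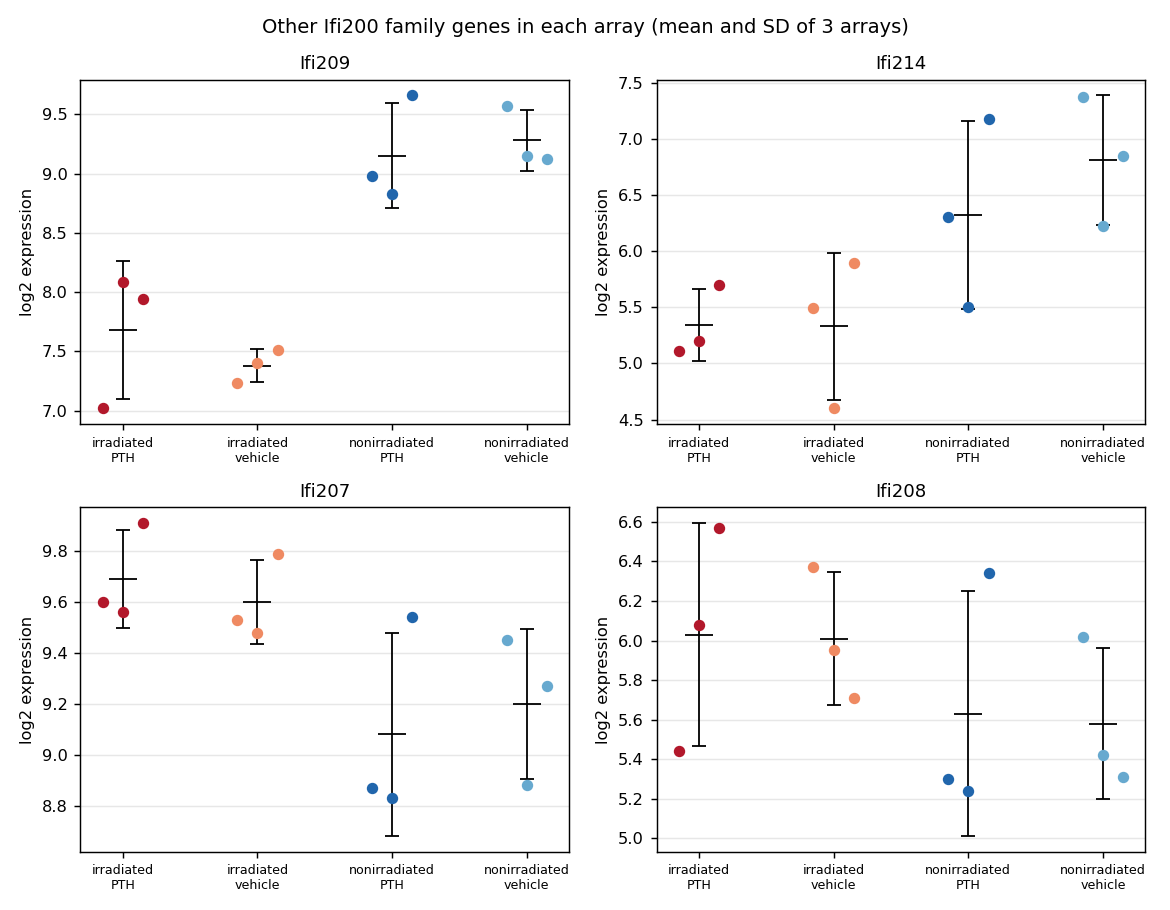
Log2 expression of Ifi209, Ifi214, Ifi207 and Ifi208 (1 panel each, with its own scale) in every array, with the mean and SD of the 3 arrays of each group as bars. The irradiated arrays of Ifi209 lie between 7.02 and 8.09, below all nonirradiated arrays at 8.83 to 9.66.

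The large differences were not shared by every adjacent gene of the cluster. Ifi205, at 2.65 with PTH and 2.86 with vehicle, lay next to Ifi202b, at 0.06 and -0.02. Ifi202b was low on every array (3.20 to 3.81, against array medians of 6.18 to 6.25), where a difference may not be seen. Beyond it lay Ifi203, at -0.42 and -0.52. Ifi209, at -1.47 and -1.90, lay between Ifi213, at 0.26 and 0.08, and Ifi208, at 0.40 and 0.43. Ifi214, which was also lower (-0.99 and -1.49), lay on the other side of Ifi213. Neighbours outside the cluster were the 10 nearest measured protein-coding genes, 5 on each side, with olfactory receptor genes passed over. Of these 10 genes, 1 passed limma's test. This was Fmn2, an actin nucleator gene, which fell by 0.90 with PTH (adjusted p = 0.0117) and by 1.12 with vehicle (adjusted p = 0.0042).

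**Figure D3:**
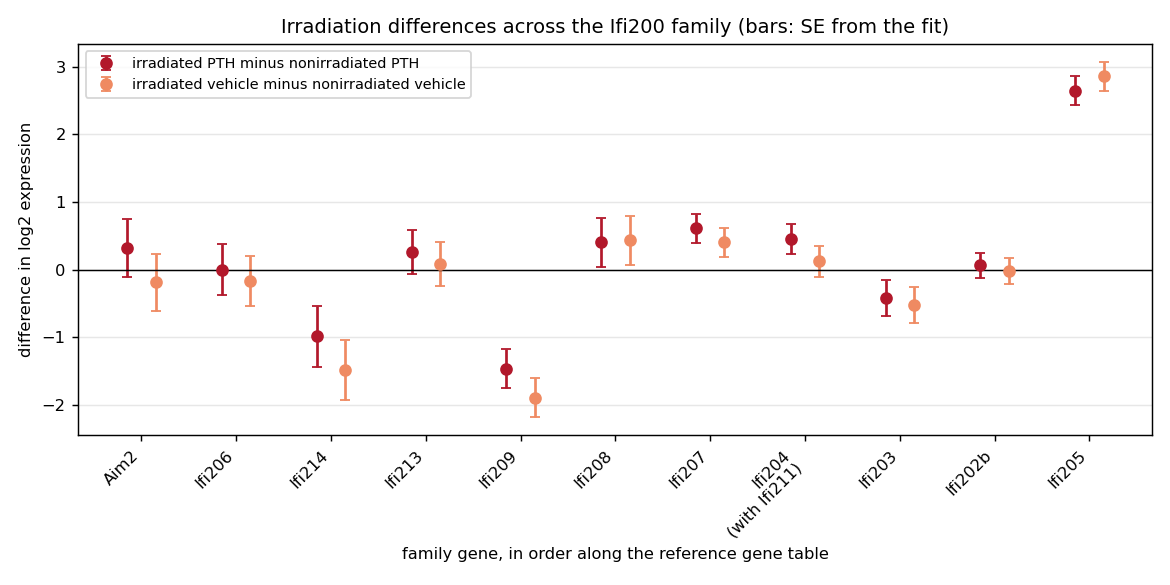
Difference in log2 expression (irradiated minus nonirradiated) of the 11 measured family rows, in their order along chromosome 1, with PTH and with vehicle. Points are differences of group means and bars are standard errors from the fit. Ifi205 stands at 2.65 and 2.86, Ifi209 at -1.47 and -1.90 and Ifi214 at -0.99 and -1.49, and the other rows lie within -0.52 and 0.61.

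PTH was tested in each irradiation state and for its interaction with irradiation, which asks whether irradiation changes the response to the hormone. Of the 4 members 0 passed in any of these 3 contrasts, as did 0.0% of all 35556 rows in limma's test (at an unadjusted p under 0.05 there were 1333 rows in irradiated marrow, 688 in nonirradiated marrow and 1695 for the interaction). In irradiated marrow Ifi205 averaged 8.57 ± 0.463 with PTH and 8.89 ± 0.249 with vehicle (SD, n = 3 each), a log2 difference of -0.32 (95% interval -0.79 to 0.16, limma adjusted p = 0.863). The arrays overlapped, since replicate 2 with PTH, at 9.11, was the highest of the 6. Ifi203 differed by 0.07 (-0.52 to 0.66, adjusted p = 0.957), and the row of Ifi204 and Ifi211 by 0.22 (-0.27 to 0.72, adjusted p = 0.863). Aim2 averaged 9.19 ± 0.519 with PTH and 8.63 ± 0.569 with vehicle, a difference of 0.56 (-0.38 to 1.5, adjusted p = 0.863). These intervals, from the fit without the replicate number, leave room for differences in either direction.

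In nonirradiated marrow the differences with PTH were -0.10 for Ifi205 (95% interval -0.58 to 0.37), -0.03 for Ifi203 (-0.62 to 0.56), -0.11 for the row of Ifi204 and Ifi211 (-0.61 to 0.38) and 0.05 for Aim2 (-0.89 to 0.99). Each had a limma adjusted p of 1.0, and all 4 changed sign in at least 1 alternative fit. The interaction was -0.21 for Ifi205 (-0.89 to 0.46, adjusted p = 0.852), 0.10 for Ifi203 (-0.73 to 0.93, 0.947), 0.34 for the row of Ifi204 and Ifi211 (-0.37 to 1.04, 0.8) and 0.51 for Aim2 (-0.82 to 1.84, 0.827). None of the 4 members had PTH and vehicle arrays that did not overlap, in either irradiation state, against 9.8% of all rows in irradiated and 6.93% in nonirradiated marrow. Of the 7 other family genes 0 passed in any PTH contrast (0 at an unadjusted p under 0.05), and their differences ran from -0.08 to 0.30 in irradiated and from -0.49 to 0.04 in nonirradiated marrow.

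**Figure D4:**
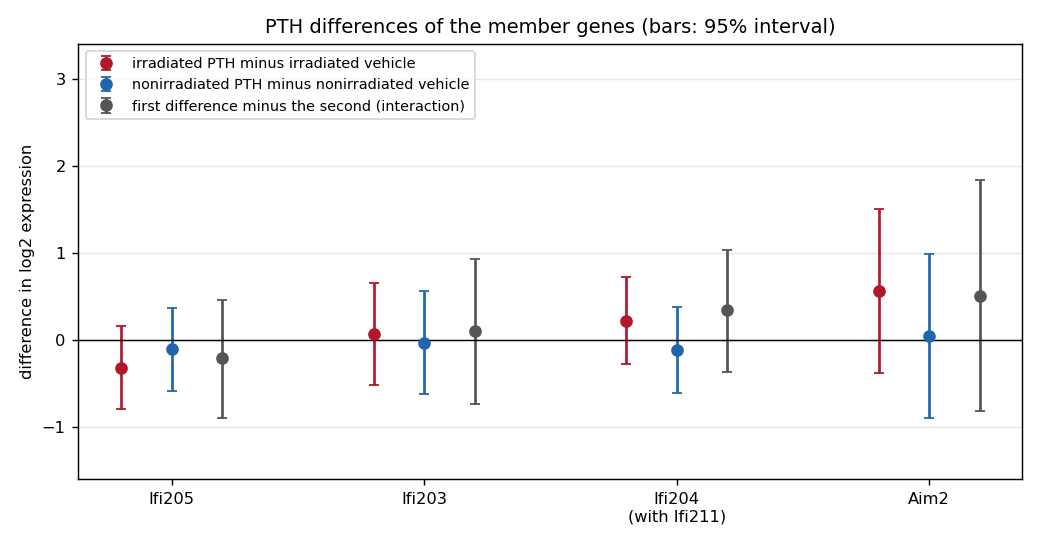
Difference in log2 expression (PTH minus vehicle) of the 4 members in irradiated and in nonirradiated marrow, and the irradiated difference minus the nonirradiated one (interaction), with 95% intervals from the fit as bars. All 12 intervals include 0, and those of Aim2 are the widest.

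In the irradiated groups, arrays with the same replicate number deviated together, and the difference was also taken within each number. Replicate 1 was the array with high Xist in both groups, so a pairing by number and sex cannot be told apart there. PTH minus vehicle for Aim2 was 0.71, 0.40 and 0.56 for numbers 1, 2 and 3, positive in each, as it was for 19.7% of all rows. For Ifi205 the paired differences were -0.35, 0.09 and -0.69, for Ifi203 -0.12, 0.34 and -0.01, and for the row of Ifi204 and Ifi211 -0.07, 0.60 and 0.13. With the number as a block in these 6 arrays alone, an alternative chosen after seeing the data, the 4 members still did not pass, as did 0 of all rows (2867 at an unadjusted p under 0.05). The interval for Aim2 then ran from 0.21 to 0.9 (SE 0.14, limma unadjusted p = 0.00809, adjusted p = 0.613). Those of Ifi205 (-0.78 to 0.15), Ifi203 (-0.31 to 0.45) and the row of Ifi204 and Ifi211 (-0.21 to 0.65) included 0.

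Within groups many family rows were high or low on the same arrays, which was not shown to be particular to the family. Replicate 3 of nonirradiated PTH marrow was the highest of its group in 10 of the 11 family rows, and replicate 2 the lowest in 10. Replicate 1 of nonirradiated vehicle marrow was highest in 9, replicate 3 of irradiated vehicle marrow in 9 and replicate 3 of irradiated PTH marrow in 8. The median deviation from the group mean over the 11 rows was 0.46, 0.37, 0.20 and 0.36 on these 4 arrays in the order replicate 3 of nonirradiated PTH, replicate 1 of nonirradiated vehicle, replicate 3 of irradiated vehicle and replicate 3 of irradiated PTH, beside -0.01, -0.01, -0.02 and 0.03 over all rows. Only 1 of these arrays, replicate 3 of irradiated PTH marrow, had a narrow range. The medians of all 12 arrays were nearly equal (6.18 to 6.25), which keeps the all-row deviations near 0. Those deviations therefore give no background for scatter shared by a set of genes. How many rows outside the family were highest on the same arrays was not counted.

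The genes most like each member over the 12 arrays were found by Pearson's r among 19928 genes outside the family, as a description, since all 12 arrays share the group differences. For Ifi205 they were Serpina3n, an acute-phase protease inhibitor (0.968), Fabp4, a fatty acid carrier of adipocytes and macrophages that is also in the adipocyte list above (0.968), Clec4n, the myeloid lectin Dectin-2 (0.965), and the monocyte chemokine Ccl12 (0.965). All 4 were higher after irradiation, by log2 differences of 3.51, 1.28, 2.25 and 3.46 with PTH and 4.28, 1.41, 2.13 and 3.68 with vehicle. Once group means were removed, r was -0.283 for Serpina3n, -0.00693 for Fabp4, 0.364 for Clec4n and -0.103 for Ccl12. The likeness of Ifi205 to these 4 genes was thus mainly one of group means. Choosing by r over all 12 arrays favours such genes where the group difference is large.

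The remaining members were like other genes within groups as well. For Ifi203 the nearest were the transcription factor Klf2 (r 0.916, and 0.883 without group means), I730030J21Rik (0.913), Fam3c (0.908) and Pgap1 (0.907). For the row of Ifi204 and Ifi211 they were Nampt, an enzyme of NAD synthesis (0.901, and 0.873 without group means), Gm6377 (0.886), Selenot (0.886) and Fam220a (0.882). For Aim2 they were Anapc10, a subunit of the anaphase-promoting complex (0.987, and 0.99 without group means), the small nucleolar RNA Snord82 (0.98), Hltf (0.977) and Chmp1b (0.976). Without group means 839 of the 19928 genes (4.21%) had an r of 0.9 or more with Aim2, against 17 for the row of Ifi204 and Ifi211, 4 for Ifi203 and 1 for Ifi205. The scatter of Aim2 within groups was therefore shared with these 839 genes, and what those arrays have in common was not tested.

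The partners of these sensors were read from lists of inflammasome, cytosolic DNA sensing and interferon signalling genes. Of 19 inflammasome genes 1 fell with PTH and with vehicle 1 fell and 1 rose, beside 1.08% and 0.937% of all rows. In this list 8 genes with PTH and 6 with vehicle had a limma unadjusted p under 0.05, beside 3680 and 3610 of all 35556 rows. The median differences of the list were -0.05 with PTH and -0.04 with vehicle, beside 0.03 and -0.04 over all rows. The gene that fell with both treatments was Il1b, the cytokine that caspase-1 matures. Il1b stood at 5.80, 5.57 and 6.48 in irradiated PTH marrow and 5.99, 6.0 and 6.04 in irradiated vehicle marrow, against 8.26, 8.49 and 8.12 in nonirradiated PTH marrow and 9.08, 8.90 and 8.27 in nonirradiated vehicle marrow. No irradiated array reached a nonirradiated one, and Il1b fell by 2.34 with PTH (limma adjusted p = 0.00135) and fell by 2.74 with vehicle (adjusted p = 0.00141), in the direction opposite to the difference of Ifi205. Il1rn, the secreted antagonist of the IL-1 receptor, stood at 8.06, 8.14 and 8.22 in irradiated vehicle marrow, against 7.44, 7.12 and 6.96 in nonirradiated vehicle marrow. Il1rn rose by 0.96 with vehicle (limma adjusted p = 0.0289), a call kept in 6 of 12 fits that each left out 1 array (adjusted p up to 0.127), and differed by 0.38 with PTH (adjusted p = 0.49).

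The core of the AIM2 pathway did not pass. Pycard, the adaptor, differed by -0.31 with PTH and -0.11 with vehicle (limma adjusted p = 0.63 and 0.895). Casp1, the protease of the complex, differed by 0.55 and 0.12 (0.692 and 0.953). Casp1 was scattered within groups as Aim2 was, at 7.41, 7.77 and 8.63 in irradiated PTH, 6.83, 7.23 and 8.0 in irradiated vehicle, 7.52, 7.05 and 7.61 in nonirradiated PTH and 8.16, 6.76 and 6.78 in nonirradiated vehicle marrow. Gsdmd, which forms the pores of pyroptosis, differed by -0.57 and -0.22 (0.343 and 0.792), and the cytokine gene Il18 by 0.86 and 0.46 (0.464 and 0.755).

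Of 19 DNA sensing genes 0 passed limma's test with either treatment (5 and 5 had an unadjusted p under 0.05), with median differences of -0.05 with PTH and 0.19 with vehicle. Of all 35556 rows, 3680 with PTH and 3610 with vehicle had an unadjusted p under 0.05 for irradiation. Cgas, the enzyme that makes the second messenger of the cGAS pathway, differed by 0.36 and 0.38, and its receptor Sting1 by -0.54 and 0.32. Zbp1, a sensor of Z-form nucleic acids, differed by 0.18 and 0.69, and the DNA exonuclease Trex1 by 0.05 and 0.08. Of 16 interferon signalling genes 0 passed as well (4 and 2 at an unadjusted p under 0.05), with median differences of -0.26 with PTH and -0.06 with vehicle. Irf7, a factor induced by interferon, differed by 0.55 with PTH and 1.01 with vehicle (limma adjusted p = 0.635 and 0.343). The transcription factor genes Stat2 and Irf9 differed by -0.34 and 0.24 and by 0.14 and 0.45. In the PTH contrasts and the interaction 0 genes of these 3 lists passed, and at an unadjusted p under 0.05 there were 0 in irradiated marrow, 0 in nonirradiated marrow, and 1, 1 and 0 for the interaction in the inflammasome, DNA sensing and interferon lists. With the number as a block in the irradiated arrays alone these were 2, 0 and 1 genes for PTH, again with 0 called: Casp1 (0.58, SE 0.131, limma adjusted p = 0.613), Il1a (0.48, SE 0.175, adjusted p = 0.613) and Jak2 (0.41, SE 0.145, adjusted p = 0.613).

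**Figure D5:**
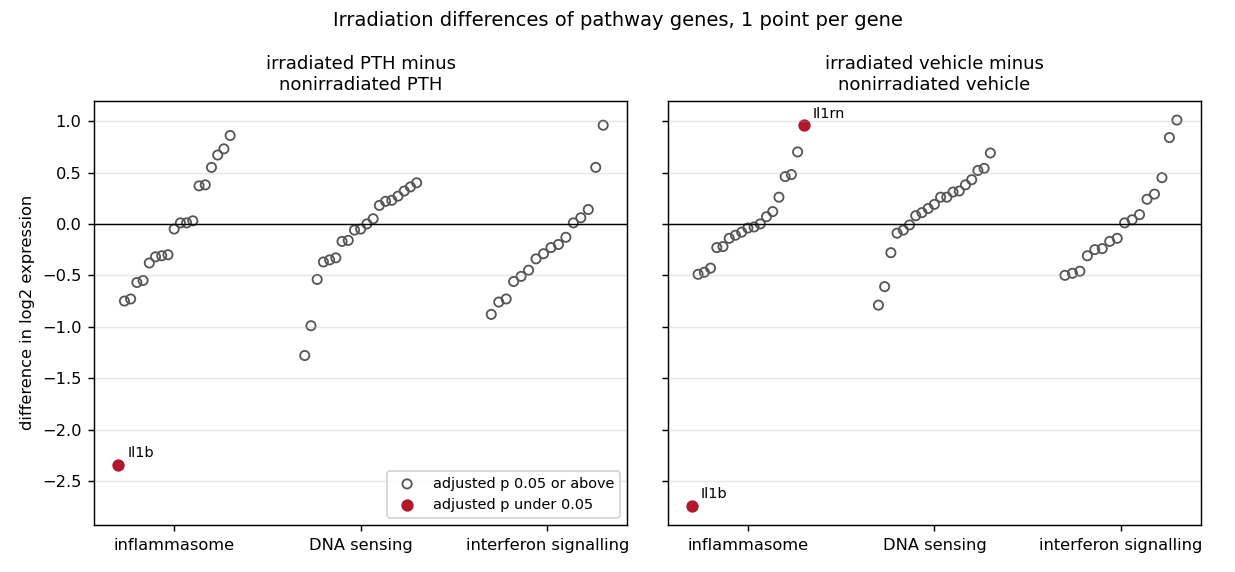
Difference in log2 expression (irradiated minus nonirradiated) of every measured gene of the inflammasome, DNA sensing and interferon signalling lists, with PTH (left) and with vehicle (right), 1 point per gene, ordered by size within a list. Filled points passed limma's test at an adjusted p under 0.05: Il1b at -2.34 and -2.74, and Il1rn at 0.96 with vehicle.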

How the data were processed

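The authors deposited a table of log2 values, 1 per row and array, a scale read from the values and from RMA, which corrects background, equalizes the distributions of the arrays and summarizes probes by median polish. The tools affy, RMA and limma are named per the submitters' processing notes, with no versions or roles. Per the labels' protocols, 100 ng of total RNA was amplified by a whole-transcript method. The genome build and whether all arrays were normalized together are not given in the sources used here.

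Of 35556 rows, 21789 had 1 gene symbol in the platform annotation, 1621 several and 12146 were not listed. For the 999 genes with several rows the row with the highest mean was used. Symbols were checked by gene identifier against RefSeq's GRCm38.p6 table, and 91 had no match. Promoter sequences are RefSeq's, and 12 family genes matched by symbol.

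All 12 arrays were fitted in limma 3.58.1 (R 4.3.3) as 4 group means with 8 residual degrees of freedom and empirical Bayes moderation. Benjamini-Hochberg adjustment ran over all rows, and rows under 0.05 were called. There were 5 contrasts. The fit was tested on simulated data. Members, gene lists and tests were chosen with earlier results of these data known. The 12 lists held 156 entries, of which 144 could be measured. Named were all family rows, up to 4 called genes per pathway list and contrast, 13 pathway genes fixed in the list of names, the 4 genes most like each member, and 5 neighbours on each side. Casp1 is given by array as a choice made after its values were seen. Alternatives covered moderation, array weights, scaling, row filters, the samples fitted, the replicate number as a block, and each array left out. A term for sex and a fit without both narrow arrays were also run. A block in the irradiated arrays alone was added after seeing the data. Replicate numbers come from the labels, which do not say that they pair arrays. In the irradiated groups all 3 same-numbered pairs correlated in their deviations from the group means (0.194 to 0.514, against -0.496 to 0.191 for other numbers). In the other contrasts they did not all do so (lowest -0.0441 for irradiation with PTH, -0.531 for irradiation with vehicle and -0.108 for PTH in nonirradiated marrow).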

Additional observations from a re-analysis of the deposited data

How the results depend on the processing

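Leaving out 1 array could not reverse the 2.86 and 2.65 irradiation differences of Ifi205. They were 2.78 to 3.01 with vehicle, and with PTH 2.38 to 2.81 without 1 array and 2.35 with a term for sex. Il1b passed in every fit with both treatments. No member passed for PTH or the interaction in any fit (lowest adjusted p 0.609), and where a value below changed sign the cause was not tested.

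The count of rows called for irradiation with vehicle, 333, became 912 with array weights, 149 with only the groups compared and 206 with a term for sex. It ran from 122 to 558 over fits without 1 array (149 and 173 without replicates 2 and 3 of nonirradiated vehicle, 147, 122 and 134 without replicates 1, 2 and 3 of irradiated vehicle, and 558 without replicate 3 of irradiated PTH). With PTH, 385 became 997, 95 and 120 in the same 3 settings and ran from 140 to 395 (170, 159 and 140 without replicates 1, 2 and 3 of nonirradiated PTH, and 171 without replicate 1 of irradiated PTH). Fewer samples stand in the fits without an array or with only the groups compared. The count of 0 for PTH in nonirradiated marrow became 4 with only the groups compared.

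For irradiation, Aim2 gave 0.06 with vehicle with the sex term (-0.48 to 0.25 without 1 array) and -0.17 with PTH with the sex term (0.03 to 0.55), and Ifi206 with PTH, at -0.00, ran from -0.32 to 0.33 without 1 array. Other values changed sign as follows. PTH in irradiated marrow gave -0.05 for Ifi203 without both narrow arrays (-0.05 to 0.25 without 1 array). In nonirradiated marrow PTH gave 0.35 for Ifi205 with a term for sex, 0.13 for Ifi203 with array weights and 0.36 with the sex term (-0.32 to 0.18 without 1 array), 0.03 and 0.28 in these settings for the row of Ifi204 and Ifi211 (-0.26 to 0.07), and for Aim2 -0.01 with quantile normalization repeated and -0.22 without both narrow arrays (-0.22 to 0.49). The interaction gave -0.04 for Ifi203 with array weights and -0.29 with the sex term (-0.11 to 0.39 without 1 array), and with the sex term -0.06 for the row of Ifi204 and Ifi211 and -0.23 for Aim2. For irradiation with vehicle, Ifi202b gave 0.06 with quantile normalization repeated, 0.03 with arrays centred and 0.13 without both narrow arrays (-0.13 to 0.13 without 1 array), Ifi206 gave 0.07 with the sex term (-0.36 to 0.10), and Ifi213 gave -0.20 without both narrow arrays (-0.20 to 0.46). With PTH, Ifi202b gave -0.11 with array weights, -0.02 with quantile normalization repeated and -0.14 without both narrow arrays (-0.14 to 0.17).

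The replicate block over all 12 arrays gave 293 and 404 rows for irradiation with vehicle and with PTH. It moved the adjusted p of Ifi209 with PTH to 0.053 and that with vehicle to 0.0253. With the replicate block in the irradiated arrays alone, where pairing and sex cannot be told apart, 0 rows were called for PTH, and Aim2, at 0.56 with an SE of 0.14, had a limma unadjusted p of 0.00809 and an adjusted p of 0.613. Among the other family genes, Il1b, Il1rn and Fmn2, the block over all 12 arrays changed no other call for irradiation. Marker genes and the remaining pathway genes were not checked singly under that block. Ifi209 with PTH was also lost with quantile normalization repeated (0.0517) and without both narrow arrays (0.0844). Il1rn with vehicle was lost with only the groups compared (0.0843), with the sex term (0.0785) and without both narrow arrays (0.0587). Fmn2 with PTH was lost with only the groups compared (0.112) and with the sex term (0.106), and in 3 of 12 fits without 1 array. The DNA sensing and interferon lists, at 0 genes called, reached at most 1 in any fit. For DNA sensing with PTH the count became 1, a fall, in 7 alternatives. Among them were array weights, 1 row per gene, dim rows left out and the replicate block over all 12 arrays. In the main fit the gene of that list nearest the threshold was Unc93b1 (-1.28, limma adjusted p = 0.0619).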
